A study of Mus musculus with 16 samples.

Results

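The genes described here carry the type I interferon signal through the cell and were followed in 2 lines of immortalized mouse embryonic fibroblasts. They are 9 of the 24485 gene IDs measured: the receptor chains Ifnar1 and Ifnar2, the kinases Jak1 and Tyk2, the transcription factor subunit Stat2, and the interferon regulatory factors Irf9, Irf7, Irf1 and Irf3. The 9 genes are meant to set transcription factors thought to be induced beside receptors and kinases thought to be constant, though not all were so. They were picked by name from the pathway, with earlier results of all 16 libraries known. Their values are therefore given as a description, with differences and standard errors but no p-value. How many of them passed a threshold used for all genes is given beside the share of all genes that did. How this moved under other settings is given too, and nothing is read from either.

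The exp line is R26M2rtTA/+;TetOcre;Sdhcfl/fl and the ctl line is R26M2rtTA/+;TetOcre;Sdhcfl/wt. In both, doxycycline at 1 µg/mL acts through the transactivator to switch on Cre recombinase, which can remove both copies of Sdhc in exp and the floxed copy alone in ctl. Sdhc codes for a part of succinate dehydrogenase that anchors this mitochondrial enzyme in the membrane. The mRNA was sequenced at days 0, 5, 9, 12, 16 and 20. At day 16 each line has 3 biological replicates, and at the other days it has 1 library. Both lines thus share the transactivator, the Cre transgene and the drug, and no line without them is analysed here. Each genotype is represented by a lone line, and line and genotype cannot be told apart.

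Type I interferons bind a receptor made of IFNAR1 and IFNAR2, whose tails hold the kinases TYK2 and JAK1. The kinases phosphorylate STAT proteins, among them STAT2, which joins IRF9 in the complex ISGF3 that binds interferon-stimulated response elements (ISREs) in target promoters. IRF3 starts interferon transcription after nucleic acid sensing and IRF7 amplifies it. IRF1 acts on related elements. Gamma-activated sites (GAS) are a second kind of element, at which STAT dimers bind.

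The libraries held 18121520 (exp day 5) to 42486438 (ctl day 16 replicate 2) reads in genes, recovered from the steps of the FPKM values. Among the 9 genes, the lowest read count in any library was 133, for Irf7, so none of them was near the limit of detection. Day 16 replicates 2 and 3 stood apart from replicate 1 in both lines: they correlated at 0.995 with each other in exp and 0.997 in ctl, against 0.951 to 0.953 with replicate 1 in exp and 0.979 to 0.981 in ctl. Values at day 16 are therefore given for the replicate 1 pair and for replicates 2 and 3. Sdhc, the targeted gene, began at 87.8 FPKM in exp and 90.5 FPKM in ctl; its day 16 replicates had 36.9, 32.8 and 26.5 FPKM in exp, against 50.5, 50.1 and 47.5 FPKM in ctl. The fibroblast markers summed to 2650 to 3910 FPKM in exp libraries and 2580 to 2890 FPKM in ctl libraries, but single markers, singled out after their values were seen, differed strongly in both directions. Col1a2 had 373 to 721 FPKM in exp and 80.4 to 103 FPKM in ctl, Pdgfra 15.2 to 31.0 FPKM in exp and 47.7 to 59.2 FPKM in ctl, and Thy1 0.588 to 9.57 FPKM in exp and 0.512 to 1.02 FPKM in ctl (day 16 differences of 2.72, -1.50 and 2.34 log2, limma adjusted p = 0.000361, 0.000275 and 0.00466). Their part in the results was not tested. Of 6 leukocyte and macrophage markers, 5 were at or under 1 FPKM in every library, with Adgre1 at 0, and the other, Cd68, had 2.59 to 5.91 FPKM in exp and 4.65 to 6.32 FPKM in ctl (-0.66 ± 0.12 log2 at day 16, limma adjusted p = 0.0336). All 3 endothelial markers were at or under 1 FPKM. The 3 epithelial markers summed to 2.15 to 49.5 FPKM in exp and 0.19 to 0.43 FPKM in ctl, mostly as Krt18.

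The ligands were near or at 0 in both lines. Of 21 interferon genes measured, 13 were listed at 0 in all libraries. Ifnb1, the interferon that fibroblasts classically make, had 2 reads over the 8 exp libraries and 4 reads over the 8 ctl libraries. Ifna13 had 1 read in exp and 3 in ctl, Ifnab 2 in exp and 9 in ctl, and Ifne 5 in exp and 8 in ctl. Ifnz stood above these with 150 reads in exp and 212 in ctl, at no more than 0.698 FPKM. Outside Ifnz no ligand gene exceeded 0.159 FPKM, and none passed the filter on low values, so none was tested. A library at 0 may still have had up to 3 reads expected by counting error alone, and RNA was sampled on 6 days only.

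Ifnar1 was lower in exp than in ctl on every day, day 0 included. It encodes the receptor chain that holds TYK2 (gene ID 15975; chr16:91485483-91507686, plus strand, mm9). Ifnar1 in exp had 21.2, 26.0, 23.9 and 28.2 FPKM at days 0, 5, 9 and 12, then 24.6, 21.2 and 21.8 FPKM at day 16 and 25.5 FPKM at day 20. Ifnar1 in ctl had 29.4, 34.2, 29.7 and 31.5 FPKM at days 0, 5, 9 and 12, then 30.2, 25.6 and 25.9 FPKM at day 16 and 31.4 FPKM at day 20. Exp was the lower of the pair in 8 of 8 pairs, by 0.15 to 0.45 on the log2(FPKM + 1) scale, and 6 exp libraries lay below all ctl libraries. The share of all genes with such a gap over the days was not counted. At day 16 all 3 exp libraries lay below all 3 ctl libraries, as in 16.5% of the 12533 genes tested. The day 16 difference was -0.26 ± 0.09 log2 (SE, n = 3 per line), with -0.28 in the replicate 1 pair. The widest gap, -0.45, was at day 0.

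Ifnar2 showed no lasting gap between the lines. It encodes the chain that holds JAK1 and ends 65.8 kb before the start of Ifnar1 (gene ID 15976; chr16:91373028-91419696, plus strand, mm9). Ifnar2 in exp had 12.6, 12.8, 15.8 and 17.6 FPKM at days 0, 5, 9 and 12, then 15.4, 12.5 and 11.5 FPKM at day 16 and 15.7 FPKM at day 20. Ifnar2 in ctl had 14.1, 16.2, 15.5 and 14.7 FPKM at days 0, 5, 9 and 12, then 13.4, 11.8 and 11.8 FPKM at day 16 and 14.4 FPKM at day 20. Exp was lower at days 0 and 5 and higher at days 9, 12 and 20, and the lines overlapped at day 16 with a difference of 0.07 ± 0.12 log2. The annotated spans of Ifnar2 and Il10rb share 13288 bases on 1 strand, so their reads may have been split between them. The 2 receptor chains did not keep a fixed proportion: the Ifnar1 value was 1.52 to 2.03 times the Ifnar2 value in exp libraries and 1.92 to 2.25 times in ctl libraries.

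Jak1 had the highest FPKM of the 9 genes, and in exp its level depended on the replicate set. It encodes the kinase on IFNAR2, which also serves many cytokine receptors (gene ID 16451; chr4:100824972-100937887, minus strand, mm9). Jak1 in exp had 41.9, 48.6, 41.8 and 40.5 FPKM at days 0, 5, 9 and 12, then 45.9, 73.6 and 71.3 FPKM at day 16 and 43.4 FPKM at day 20. Jak1 in ctl had 54.0, 47.6, 50.7 and 52.6 FPKM at days 0, 5, 9 and 12, then 52.5, 58.4 and 60.5 FPKM at day 16 and 52.9 FPKM at day 20. Exp replicates 2 and 3 lay above every ctl library and 5 other exp libraries lay below every ctl library. The difference was -0.19 log2 in the replicate 1 pair but 0.33 and 0.23 in the replicate 2 and 3 pairs, and its estimate over all 3, 0.12 ± 0.19, was smaller than its standard error.

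Tyk2 declined in exp from the highest value of either line. It encodes the kinase on IFNAR1 (gene ID 54721; chr9:20908521-20931790, minus strand, mm9; its whole span lies within the opposite-strand transcript 1700084C06Rik, and the strand setting of the counts is not given). Tyk2 in exp had 11.6, 9.24, 10.4 and 9.54 FPKM at days 0, 5, 9 and 12, then 7.92, 8.37 and 8.95 FPKM at day 16 and 8.36 FPKM at day 20. Tyk2 in ctl had 9.13, 9.63, 9.04 and 8.18 FPKM at days 0, 5, 9 and 12, then 8.75, 8.87 and 9.00 FPKM at day 16 and 8.07 FPKM at day 20. The lines overlapped at day 16, with a difference of -0.07 ± 0.07 log2. The slope was -0.42 ± 0.11 log2 per 20 days in exp and -0.14 in ctl. The exp libraries of days 0 and 9 were the 2 that lay above every ctl library.

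**Figure D1:**
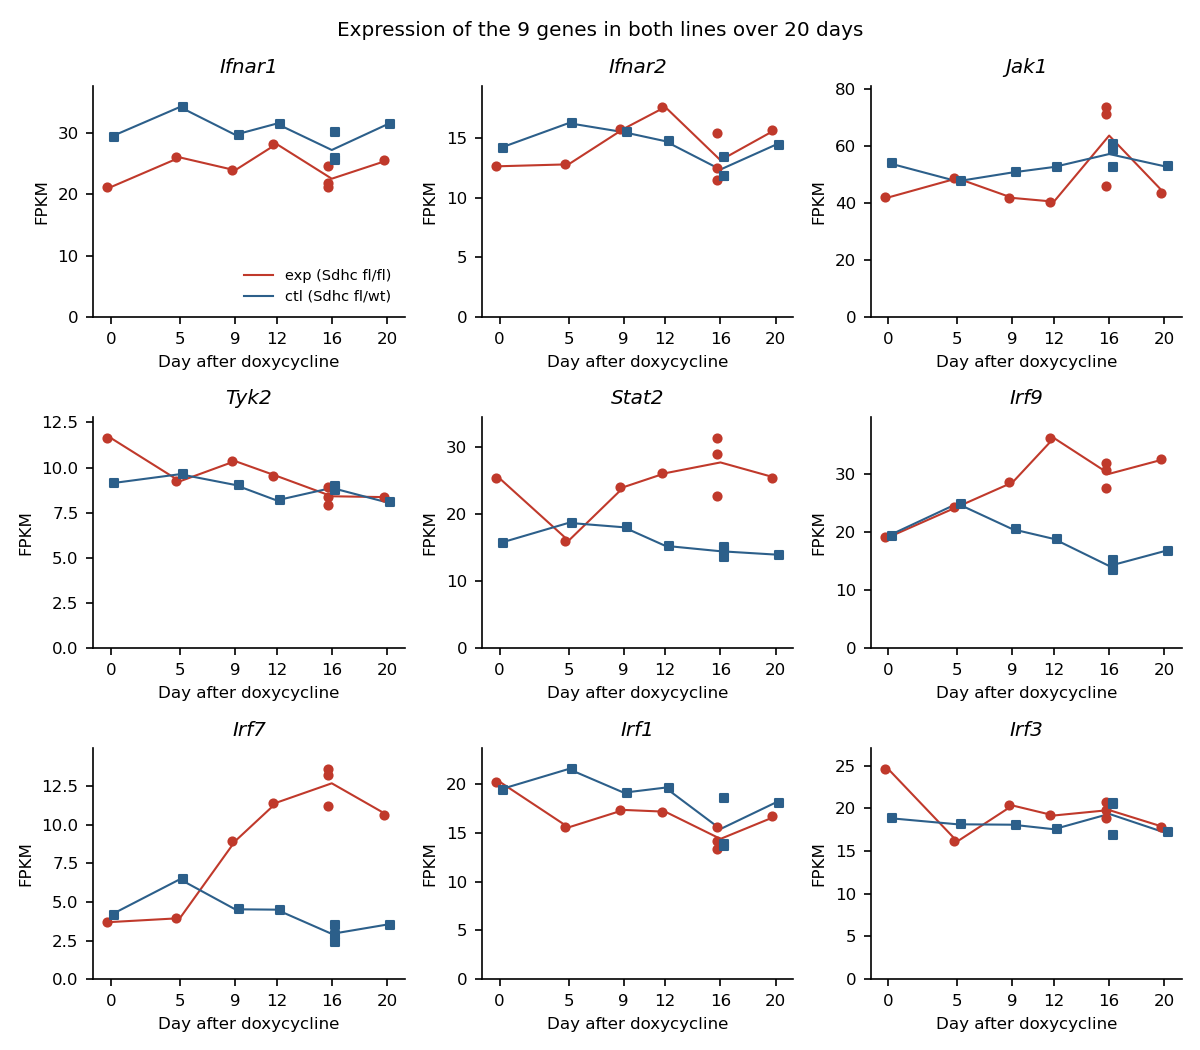
FPKM of the 9 genes (y axis, from 0) against days after doxycycline (x axis); red circles are exp libraries, blue squares ctl libraries, and lines join the daily means, which rest on 3 libraries at day 16 and 1 elsewhere. Irf7, Irf9 and Stat2 stand above all ctl libraries in the 6 exp libraries from day 9 on, Ifnar1 lies below ctl on each day, and the remaining genes overlap between the lines.

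Stat2 was the one of the 3 higher transcription factor genes that was already higher in exp at day 0. It encodes the STAT that is specific to ISGF3 (gene ID 20847; chr10:127707629-127729905, plus strand, mm9). Stat2 in exp had 25.4, 16.0, 24.1 and 26.1 FPKM at days 0, 5, 9 and 12, then 22.8, 29.1 and 31.4 FPKM at day 16 and 25.4 FPKM at day 20. Stat2 in ctl had 15.7, 18.7, 18.0 and 15.3 FPKM at days 0, 5, 9 and 12, then 13.6, 15.2 and 14.7 FPKM at day 16 and 14.0 FPKM at day 20. All exp libraries but that of day 5 lay above every ctl library. The day 16 means were 27.7 ± 4.46 FPKM in exp and 14.5 ± 0.824 FPKM in ctl (SD, n = 3 each), a difference of 0.88 ± 0.12 log2, or 0.71 within the replicate 1 pair and 0.97 over replicates 2 and 3. The difference was already 0.66 at day 0, but -0.21 at day 5. The exp day 16 mean was 1.09 times the exp day 0 value and the ctl mean 0.923 times the ctl day 0 value, so at day 16 neither line was far from its start.

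Irf9 began equal in the lines and separated from day 9. It encodes the DNA-binding subunit of ISGF3 (gene ID 16391; chr14:56222408-56228867, plus strand, mm9). Irf9 in exp had 19.1, 24.4, 28.6 and 36.3 FPKM at days 0, 5, 9 and 12, then 31.9, 27.6 and 30.7 FPKM at day 16 and 32.6 FPKM at day 20. Irf9 in ctl had 19.4, 24.9, 20.5 and 18.8 FPKM at days 0, 5, 9 and 12, then 15.3, 13.5 and 13.8 FPKM at day 16 and 16.7 FPKM at day 20. The exp-minus-ctl difference was -0.02 and -0.03 log2 at days 0 and 5, then 0.46, 0.91 and 0.92 at days 9, 12 and 20. The day 16 estimate was 1.03 ± 0.08 log2, or 1.02 within the replicate 1 pair and 1.04 over replicates 2 and 3. The gap opened from both sides: the day 16 mean was 1.57 times the day 0 value in exp and 0.732 times in ctl, and the slope per 20 days was 0.67 ± 0.21 log2 in exp and -0.62 ± 0.21 in ctl.

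Irf7 had the largest day 16 difference of the 9 genes and the lowest mean level over the 16 libraries. It encodes the factor that amplifies interferon transcription and is itself an ISGF3 target (gene ID 54123; chr7:148448605-148452380, minus strand, mm9). Irf7 in exp had 3.70, 3.95, 8.94 and 11.4 FPKM at days 0, 5, 9 and 12, then 11.2, 13.2 and 13.6 FPKM at day 16 and 10.7 FPKM at day 20. Irf7 in ctl had 4.16, 6.47, 4.52 and 4.50 FPKM at days 0, 5, 9 and 12, then 3.48, 2.42 and 2.89 FPKM at day 16 and 3.53 FPKM at day 20. Exp was the lower line at days 0 and 5, and from day 9 all 6 exp libraries lay above every ctl library. The day 16 means were 12.7 ± 1.27 FPKM in exp and 2.93 ± 0.534 FPKM in ctl (SD, n = 3 each), which is 4.33 times as much in exp. On the log2 scale the difference was 1.81 ± 0.13, or 1.45 within the replicate 1 pair and 1.98 over replicates 2 and 3. The exp day 16 mean was 3.43 times the exp day 0 value and the ctl mean 0.704 times the ctl one, and the slope per 20 days was 1.74 ± 0.32 log2 in exp and -0.67 ± 0.32 in ctl.

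Irf1 did not share this course. It encodes a factor that drives antigen presentation genes (gene ID 16362; chr11:53583516-53591876, plus strand, mm9). Irf1 in exp had 20.3, 15.6, 17.4 and 17.2 FPKM at days 0, 5, 9 and 12, then 15.6, 13.4 and 14.1 FPKM at day 16 and 16.7 FPKM at day 20. Irf1 in ctl had 19.4, 21.6, 19.1 and 19.6 FPKM at days 0, 5, 9 and 12, then 18.6, 13.9 and 13.7 FPKM at day 16 and 18.1 FPKM at day 20. Exp was the lower of the pair in 6 of 8 pairs, the lines overlapped at day 16 and the difference there was -0.08 ± 0.13 log2. Replicates 2 and 3 were lower than replicate 1 in both lines, and the slopes were alike, at -0.33 log2 per 20 days in exp and -0.38 in ctl.

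Irf3 was likewise close in the lines. It encodes the constitutive factor that starts interferon transcription (gene ID 54131; chr7:52253018-52258218, plus strand, mm9). Irf3 in exp had 24.6, 16.1, 20.3 and 19.1 FPKM at days 0, 5, 9 and 12, then 18.9, 20.7 and 19.8 FPKM at day 16 and 17.8 FPKM at day 20. Irf3 in ctl had 18.9, 18.1, 18.1 and 17.5 FPKM at days 0, 5, 9 and 12, then 16.9, 20.5 and 20.6 FPKM at day 16 and 17.2 FPKM at day 20. The groups overlapped at day 16, at a difference of 0.04 ± 0.09 log2, and the exp day 0 library was the highest of the 16. Irf3 shares 1065 bases with Bcl2l12 on the opposite strand, so their reads may not be separate. The Irf7 value was 0.15 times the Irf3 value in exp at day 0 and 0.69 times in exp day 16 replicate 3, against 0.118 to 0.357 times in ctl libraries.

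**Figure D2:**
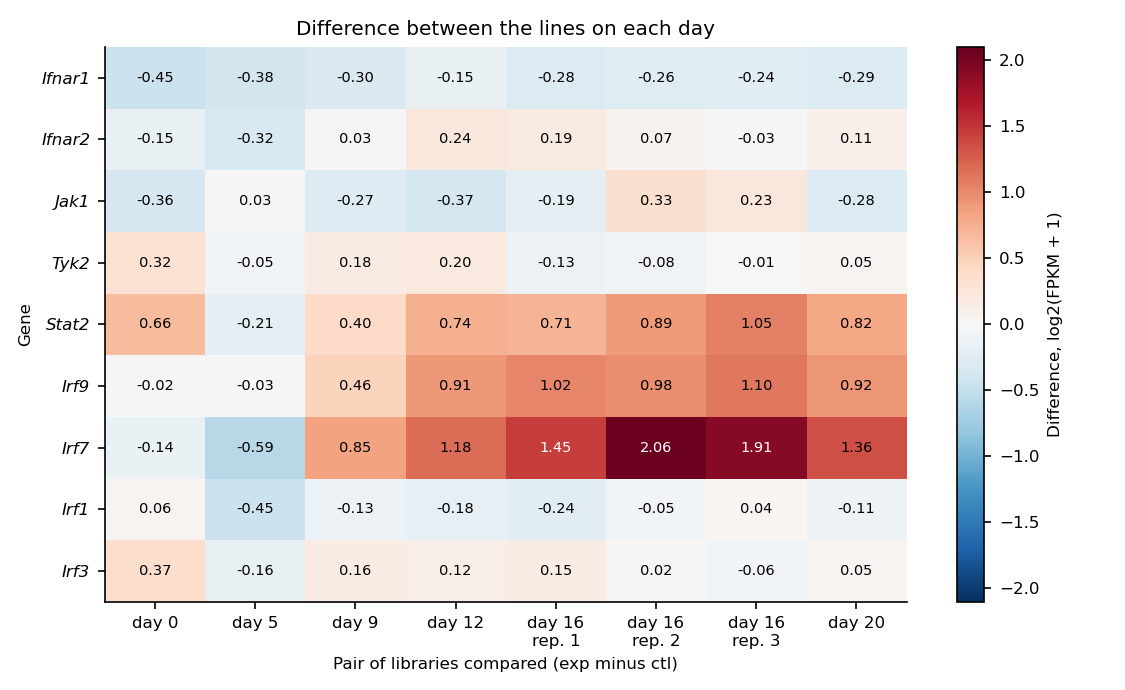
Exp-minus-ctl difference in log2(FPKM + 1) for the 9 genes (rows) in each of the 8 pairs of libraries of the same day or day 16 replicate number (columns), red where exp is higher and blue where it is lower. Irf9 and Irf7 are at or below 0 at days 0 and 5 and positive from day 9 on, Stat2 is positive at day 0 also, and Ifnar1 is negative in all 8 pairs.

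Set against all genes, 3 of the 9 were past a limma adjusted p of 0.05 and higher in exp at day 16 (Stat2, Irf9 and Irf7) and 0 were lower, where 3.1% of the 12533 genes tested were higher and 3.01% lower (6.1% in all). The median difference was 0.07 log2 over the 9 genes and -0.01 over all genes. For the change of the difference over time 1 of the 9 was past the threshold (Irf9, 1.29 ± 0.21 log2 per 20 days), where 0.183% of 12559 genes were so upward and 0.0239% downward (0.207% in all); Irf7 had 2.41 ± 0.45 and Stat2 0.69 ± 0.33. Within exp, 1 rose (Irf7) and 1 fell (Tyk2), where 1.36% of genes rose and 3.59% fell (4.95% in all), and within ctl 0 of 9 did, where 0.0% of genes were called. Irf7, Irf9 and Stat2 had all 6 exp libraries from day 9 on above all 8 ctl libraries, as 6.88% of genes did. The genes were picked on their day 16 values and their course over the days in these same libraries, so none of these counts says anything further about them.

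The size of the differences moved with the settings. Over the alternatives the day 16 difference was 0.87 to 1.09 log2 for Irf9, 1.16 to 2.15 for Irf7 and 0.71 to 1.01 for Stat2, which left the count without exp replicate 2 or 3 or without any ctl replicate. The slope difference was 1.09 to 1.51 log2 per 20 days for Irf9, 1.53 to 2.95 for Irf7 and 0.33 to 1.43 for Stat2. The exp slope was 1.15 to 2.12 for Irf7 and -0.50 to -0.31 for Tyk2. Irf7 stayed in the count under 20 of 23 alternatives and Tyk2 under 8 of 23. For Irf9 the exp slope was 0.40 to 0.81, and this gene joined the count with a replicate block alone. The day 16 difference of Ifnar1 stayed between -0.32 and -0.19, and that of Jak1 ran from -0.19 to 0.34, since its sign in replicate 1 was opposite to that in replicates 2 and 3.

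The order of mean level over the 16 libraries was Jak1 at 52.3 FPKM, Ifnar1 at 26.9, Irf9 at 23.4, Stat2 at 20.3, Irf3 at 19.1, Irf1 at 17.1, Ifnar2 at 14.1, Tyk2 at 9.07 and Irf7 at 6.80. Only Jak1 was separate from its neighbour, its lowest library (40.5 FPKM) lying above the highest of Ifnar1 (34.2 FPKM); every other pair of neighbours overlapped. The highest exp library was 3.68 times the lowest for Irf7, 1.96 times for Stat2 and 1.90 times for Irf9, against 1.82 for Jak1 and 1.33 to 1.53 for the other 5 genes. The median over 12559 genes was 1.60 times in exp and 1.30 times in ctl. In ctl the same ratio was 2.68 for Irf7, 1.85 for Irf9, 1.57 for Irf1 and 1.19 to 1.38 for the other 6 genes, with Stat2 and Ifnar2 both at 1.38.

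The mRNAs of the ISGF3 subunits Irf9 and Stat2 were not in a fixed proportion: Irf9 was 0.753 times Stat2 in exp at day 0, 1.52 times at day 5 and 0.951 and 0.977 times in exp day 16 replicates 2 and 3, against 0.891 to 1.33 times in ctl libraries.

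**Figure D3:**
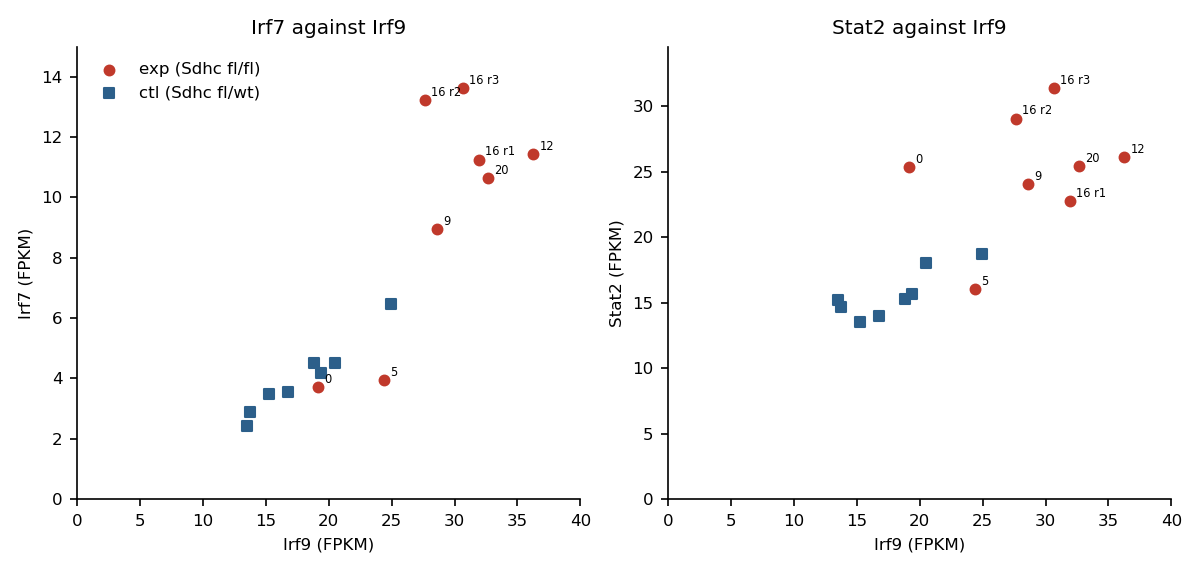
FPKM of Irf7 (left) and Stat2 (right) on the y axes against FPKM of Irf9 on the x axes in the 16 libraries; red circles are exp libraries with their day (r1 to r3 are day 16 replicates) and blue squares are ctl libraries. The exp libraries of days 0 and 5 lie among the ctl libraries in Irf7, while the exp day 0 library has 25.4 FPKM of Stat2 at 19.1 FPKM of Irf9.

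Likeness of pattern was ranked over 9116 genes by Pearson's r of log2(FPKM + 1) across the 16 libraries, which share lines, days and replicate sets, so r is a description. Among the genes most like Irf9 were Isg15 (r = 0.96), Rtp4 (0.96), Lgals3bp (0.96) and Bst2 (0.95). Those most like Irf7 were Rtp4 (0.98), Ifit1 (0.98), Bst2 (0.97), Parp12 (0.97) and Tap1 (0.97). Stat2 was most like Adar (0.91), Rspo3 (0.90), Ggt7 (0.89), Irx1 (0.88) and Wdfy1 (0.88), with Irf7 at rank 16 and Irf9 at rank 66. Irf1 was most like Pnrc1 (0.94), Cbx8 (0.94), Pdxp (0.91), Klhl24 (0.91) and Cbx2 (0.91), and had r = -0.24 with Irf7. Within the 8 exp libraries alone r was still 0.92 to 0.96 for the genes named beside Irf9, 0.94 to 0.96 for those beside Irf7, 0.60 to 0.85 for those beside Stat2 and 0.79 to 0.93 for those beside Irf1, though other genes then took the 5 top ranks.

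The promoters of Stat2, Irf9 and Irf7, which were higher in exp at day 16, are shown with that of Irf1, whose lines overlapped there. Promoter windows from RefSeq (build GRCm38.p6, 250 bases before to 50 after the start) were found for 9 of the 9 genes, with a further window each for Irf9 and Irf1. They were searched on both strands for an ISRE (GAAA, any 2 bases, GAAA), for its shorter form (GAAA, any 2 bases, GAA), which every ISRE match contains, and for a GAS (TTC, any 3 bases, GAA). An ISRE on the minus strand reads as TTTC, any 2 bases, TTTC. Each line reads 5′ to 3′ on the strand of the gene, with motif matches in capitals. The windows are chr10:128270248-128270547 (plus) for Stat2, chr14:55603735-55604034 (plus) for Irf9, chr7:141266375-141266674 (minus) for Irf7 and chr11:53769764-53770063 (plus) for Irf1.
Stat2: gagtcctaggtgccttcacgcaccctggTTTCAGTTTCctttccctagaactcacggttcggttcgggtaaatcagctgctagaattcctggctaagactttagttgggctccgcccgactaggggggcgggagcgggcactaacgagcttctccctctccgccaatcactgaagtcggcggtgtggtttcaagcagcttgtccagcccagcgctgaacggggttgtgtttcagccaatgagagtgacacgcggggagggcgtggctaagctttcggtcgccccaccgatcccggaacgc
Irf9: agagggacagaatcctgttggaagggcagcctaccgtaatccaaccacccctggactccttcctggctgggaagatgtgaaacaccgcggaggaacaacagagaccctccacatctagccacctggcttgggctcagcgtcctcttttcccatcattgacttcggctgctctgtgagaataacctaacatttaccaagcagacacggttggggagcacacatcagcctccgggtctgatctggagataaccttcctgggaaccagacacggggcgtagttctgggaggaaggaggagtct
Irf7: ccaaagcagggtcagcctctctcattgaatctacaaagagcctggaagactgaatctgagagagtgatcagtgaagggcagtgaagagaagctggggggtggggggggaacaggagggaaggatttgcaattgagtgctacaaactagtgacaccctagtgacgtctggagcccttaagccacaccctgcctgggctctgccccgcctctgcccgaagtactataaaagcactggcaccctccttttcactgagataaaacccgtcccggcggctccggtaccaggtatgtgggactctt
Irf1: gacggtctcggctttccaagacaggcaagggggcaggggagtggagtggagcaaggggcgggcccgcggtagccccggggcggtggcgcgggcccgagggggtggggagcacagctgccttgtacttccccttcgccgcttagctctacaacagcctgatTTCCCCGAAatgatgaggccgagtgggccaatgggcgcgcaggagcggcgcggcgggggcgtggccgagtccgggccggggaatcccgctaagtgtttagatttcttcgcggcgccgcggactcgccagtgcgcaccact
Stat2 was the one gene of the 9 whose window held an ISRE, read as TTTCAGTTTC from -222 to -213 relative to the start. An ISRE was found in 3.44% of all 32851 windows and the shorter form in 8.56%. A GAS was found in Irf1 (TTCCCCGAA, -90 to -82), Ifnar2 (TTCCTGGAA, -214 to -206) and Ifnar1 (TTCACGGAA, -5 to 4), and in 8.3% of all windows. No match was found in the windows of Irf7, Irf9, Irf3, Jak1 and Tyk2, which says only that these letters are not in these windows. Of 12 listed ISGF3 target genes 10 had a window and 7 of those held an ISRE. Among them Isg15 held 3 overlapping matches.

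Other genes of the pathway were counted from lists that were also drawn up with earlier results known. Outside the target genes, 68 were listed and 43 tested, of which 2 were higher in exp at day 16, 1 was lower and the median was 0.01 log2. Over all genes 3.1% were higher and 3.01% lower. In the remaining receptor and kinase lists none passed: Ifngr1, Ifngr2 and Il10rb differed by -0.05 ± 0.09, 0.08 ± 0.22 and 0.05 ± 0.08 log2, Jak2 by 0.05 ± 0.07 and Jak3 by 0.39 ± 0.13 (limma adjusted p = 0.803, 0.875, 0.785, 0.759 and 0.153). None of the 4 other STATs counted passed, and Stat3, Stat5a, Stat5b and Stat6 differed by 0.04, 0.18, -0.03 and 0.13 log2 (limma adjusted p from 0.543 to 0.843). Of 2 other IRFs tested, Irf2, which opposes IRF1, differed by 0.22 ± 0.10 and Irf5 by 0.13 ± 0.09 (limma adjusted p = 0.284 and 0.44). Irf4 and Irf8 were under the filter, and so was the receptor chain Ifnlr1, which had 0.152 to 1.03 FPKM in exp and 0.0683 to 0.19 FPKM in ctl, with 6 exp libraries above every ctl library.

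Among 16 negative regulators, Usp18, whose protein binds IFNAR2 and damps the receptor, was higher in exp and the phosphatase gene Ptpn6 was lower. Usp18 had 8.36, 9.76 and 9.82 FPKM in exp at day 16, against 1.46, 1.22 and 1.61 FPKM in ctl, a difference of 2.08 ± 0.10 log2 (limma adjusted p = 0.000361). At day 0 exp had 1.39 FPKM and ctl 2.34 FPKM, and the difference grew by 3.16 ± 0.33 log2 per 20 days (adjusted p = 0.00937). Ptpn6 had 1.78, 1.23 and 1.05 FPKM in exp at day 16, against 2.68, 3.25 and 4.19 FPKM in ctl (-0.89 ± 0.18, limma adjusted p = 0.0447; 0.0786 with a replicate block). Irf2bp2 and Pias4 differed by 0.22 ± 0.09 and -0.23 ± 0.11 (limma adjusted p = 0.239 and 0.292). Socs3, which blocks JAKs at cytokine receptors and was singled out after its values were seen, fell in exp by 2.51 ± 0.44 log2 per 20 days (limma adjusted p = 0.0107). Its exp day 0 library had 174.6 FPKM and the other exp libraries 20.1 to 36.6 FPKM, against 49.7 FPKM in ctl at day 0 and 17.3 to 35.3 FPKM in the other ctl libraries. Without day 0 the exp slope of Socs3 was -1.0 (limma adjusted p = 0.213).

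Of 10 adaptors and kinases that act upstream of IRF3 and IRF7, none passed at day 16. Myd88 differed by 0.31 ± 0.15, Traf3 by -0.19 ± 0.10, Ikbke by -0.21 ± 0.12 and Sting1 by -0.10 ± 0.08 log2 (limma adjusted p = 0.301, 0.323, 0.358 and 0.518). Over time Ikbke, a kinase that phosphorylates IRF3 and IRF7, fell in exp by 0.66 ± 0.16 log2 per 20 days (limma adjusted p = 0.0385), and so did Jak3 by 0.97 ± 0.26 (0.0455; 0.0513 with a replicate block). Ikbke was still called under 12 of 22 alternatives and Jak3 under 5 of 22, and neither without day 0 (limma adjusted p = 0.288 and 0.417). Of 6 cofactors, Ifi35, which partners Nmi, was higher at day 16 by 0.39 ± 0.08 (limma adjusted p = 0.0449). Nmi and Ep300 differed by 0.39 ± 0.12 and -0.21 ± 0.08 (limma adjusted p = 0.122 and 0.184), and Kpna1, a nuclear import receptor, by 0.13 ± 0.07 (0.353). Crebbp and Rbbp4 were not called, and over the alternatives they differed by -0.27 to -0.1 and by -0.15 to 0.05 log2. In the fit of replicates 2 and 3 alone, 4326 of 12474 genes were called. Nmi, Kpna1, Crebbp and Rbbp4 passed there, and so did Jak3, Stat5a, Irf2, Irf2bp2, Pias4 and Myd88 of the other lists. Jak3 and Stat5a also passed without exp replicate 1 (limma adjusted p = 0.03 and 0.0263), where 1599 genes were called. The calls of Ifi35 and Ptpn6 were each lost under several alternatives, with adjusted p up to 0.175 and 0.157.

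**Figure D4:**
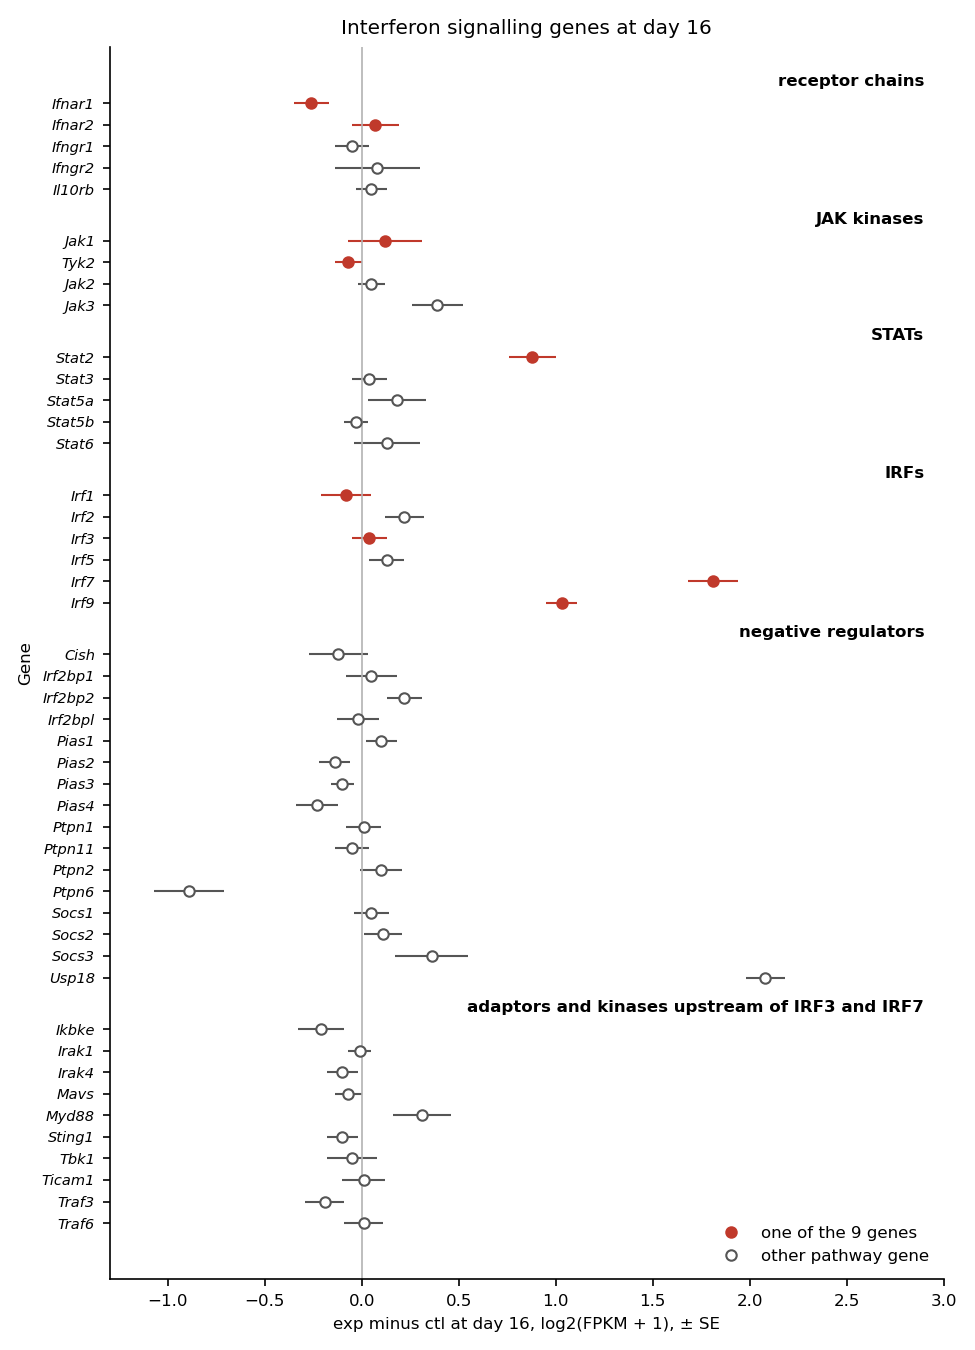
Exp-minus-ctl difference at day 16 in log2(FPKM + 1) (x axis) with its standard error (bars), 3 libraries per line, for the 9 genes (filled red) and the other tested genes of 6 classes of the pathway (open grey), one gene per row. Irf7, Irf9, Stat2 and Usp18 lie at 0.88 or above, Ptpn6 lies at -0.89 and the remaining genes lie between -0.26 and 0.39.

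The genes that ISGF3 is known to switch on were higher in exp with Irf9 and Irf7. At day 16, 10 of the 10 tested passed, with a median of 1.90 log2, among them Isg15 at 2.57 ± 0.09, Bst2 at 2.07 ± 0.13, Oas1a at 1.83 ± 0.10 and Xaf1 at 1.27 ± 0.09 (limma adjusted p = 0.000124, 0.00113, 0.000516 and 0.00119). Over time 5 of 9 tested rose in exp against ctl and 9 of 9 rose within exp. Over all genes these shares were 0.183% and 1.36%, and 3.1% were higher at day 16. Without day 16, or with day 16 averaged, no gene at all had a slope difference called. Of the 4 named, Isg15, Bst2 and Xaf1 lost the exp slope call without day 0 (limma adjusted p = 0.13, 0.146 and 0.065), and Bst2 and Xaf1 also without day 16 (0.0566 and 0.102). Of 8 tested target genes of IRF1, mostly genes of antigen presentation and guanylate-binding proteins, 4 were higher at day 16: Tap1 at 1.17 ± 0.09, Psmb8 at 1.14 ± 0.17, Gbp3 at 1.11 ± 0.23 and B2m at 0.41 ± 0.07 (limma adjusted p = 0.0015, 0.0183, 0.0495 and 0.0254). Tap1 was called under all 16 alternatives, Psmb8 under 11 of 15, B2m under 12 of 16 and Gbp3 under 6 of 15. Psmb8 and B2m lost the call without exp replicate 2 or 3 or ctl replicate 2 or 3 (limma adjusted p up to 0.0928 and 0.132), and Gbp3 without any exp replicate or ctl replicate 2 or 3 and under other scalings (up to 0.175). A pair of genes of this list pointed the other way and were singled out after their values were seen. Gbp2 had 0.838 to 3.58 FPKM in exp and 3.26 to 10.4 FPKM in ctl, at a day 16 difference of -0.41 ± 0.24 (limma adjusted p = 0.381). Cd274, under the filter, had 0.191 to 0.378 FPKM in exp and 0.421 to 0.688 FPKM in ctl, with no overlap. Irf1 itself stood at -0.08 in the same contrast. These target genes were in part the evidence by which the pathway was picked, and their direction is no independent support.

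Krt18, the epithelial marker with most of that list's signal, differed between the exp replicate sets. It had 41.5 FPKM in exp day 16 replicate 1 and 2.27 and 2.03 FPKM in exp replicates 2 and 3. The day 16 differences of Irf7, Irf9 and Stat2 were 1.45, 1.02 and 0.71 log2 in the replicate 1 pair. Over replicates 2 and 3 they were 1.98, 1.04 and 0.97 log2. A link between these differences and Krt18 was not tested. In bulk RNA, more cells that express a gene and more RNA per cell cannot be told apart.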

How the data were processed

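RNA-seq libraries from 2 lines of immortalized mouse embryonic fibroblasts, 8 per line, were assigned to groups by the titles in the labels, which give line and day. The authors deposited FPKM values, 1 per gene and library. Per the submitters' processing notes, the build was mm9 and the aligner Bowtie2 2.2.3; how reads were counted, on which annotation and strand, is not given in the sources used here. Gene IDs were matched to symbols for 24416 of 24485, and all 9 genes were matched. The 9 genes and the gene lists were chosen with earlier results of these data known. Some other genes of the pathway are not reported here.

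Whole reads were recovered for 18966 genes, 100.0% of those with reads in at least 2 libraries, within 0.02 read of a whole number by construction; on simulated data 99.42% of 18531 genes were recovered exactly. R 4.3.3 with limma 3.58.1 (and statmod 1.5.0) was run on log2(FPKM + 1) with a trend and robust moderation, two-sided, for genes averaging at least 1 FPKM, and genes were called at a Benjamini-Hochberg adjusted p under 0.05. This scale understates the change of low genes. The day 16 difference used 6 libraries. The slope difference used 16 libraries with day as a shared factor, line and line-by-day; slopes within lines came from a joint fit. All slopes are per 20 days and all differences are exp minus ctl. On simulated data with 200 changed genes and a dispersion of 0.01, the day 16 fit called 99% of 2-fold changes among 12527 genes. The slope difference fit called 57.1% among 12542. In the deposited day 16 data, replicates 2 and 3 stood apart from replicate 1 in both lines. In some genes, singled out after their values were seen, replicates 2 and 3 also lay apart from the other days. Stat6 in ctl had 24.5 and 25.7 FPKM in replicates 2 and 3, against 16.9 to 18.2 FPKM in the other ctl libraries. These simulated shares may therefore overstate what the fits recover in the deposited data.

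Same-numbered day 16 replicates deviated together (correlations of 0.38, 0.27 and 0.33). The labels do not say what a number marks, so pairs were taken from the data. The pairs were used only for the differences within pairs and in the replicate block. The main fits, with their standard errors and adjusted p, were unpaired. Exp replicate 3 correlated at 0.4 with ctl replicate 2 and exp replicate 2 at 0.21 with ctl replicate 3, so the data set replicate 1 apart but do not tell how replicates 2 and 3 pair. The p-values measure the spread between libraries of 1 line each.

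Named genes were the 9 genes; every tested gene of short pathway lists; up to 4 genes with the smallest day 16 p of longer lists; ligands with a read in at least 3 libraries; and genes among the 5 most like each of Stat2, Irf9, Irf7 and Irf1 among those with a mean FPKM of at least 5. Coordinates are from an annotation of mm9. Promoter windows are from RefSeq on GRCm38.p6, and positions on the 2 builds were not converted. Alternatives were other pseudocounts, filters, scalings and limma settings, limma voom on the recovered reads, a replicate block, and leaving out each replicate and each day.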

Additional observations from a re-analysis of the deposited data

Results flagged for a closer look

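In 5 named genes outside the 9 the slope of the exp line differed from that of the ctl line by the limma test of the difference itself. Usp18, which damps the interferon receptor, rose in exp against ctl by 3.16 ± 0.33 log2 per 20 days, the ISGF3 targets Isg15, Bst2 and Oas1a by 2.93 ± 0.38, 2.68 ± 0.37 and 2.34 ± 0.25, and Tap1, a peptide transporter, by 1.85 ± 0.25 (limma adjusted p = 0.00937, 0.0195, 0.023, 0.00937 and 0.0195). Each of these calls was lost without day 16 (limma adjusted p from 0.164 to 0.214), and without day 0 Oas1a alone was still called (0.0179). All 5 calls were also lost without replicates 2 and 3 of both lines and with day 16 averaged. Bst2 lost its call without exp replicate 2 or 3, ctl replicate 3 or day 9 as well. Isg15 lost it without exp replicate 2, and Tap1 without exp replicate 2 or ctl replicate 3. The 5 genes were named for a small day 16 p, from lists drawn up with earlier results known. The slopes use the same day 16 libraries, so these calls are no independent support. No group has 4 or more replicates, so no library could be examined as a stray value within its group.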

How the results depend on the processing

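No estimate of a named gene that had been called changed sign under any alternative. The 765 genes called at day 16 became 493 at a mean FPKM of at least 5, 4326 in replicates 2 and 3 only and 197 (ctl replicate 3) to 1599 (exp replicate 1) with 1 replicate left out, with 237 and 242 for exp replicates 2 and 3 and 218 for ctl replicate 2. The 26 slope differences became 49 after quantile normalization, 2 without replicates 2 and 3, 1, 8, 14, 12 and 0 without days 0, 5, 9, 12 and 16, 0 with day 16 averaged and 2 (exp replicate 2) to 35 (exp replicate 1) with 1 replicate left out. The 622 exp slopes became 1036 with the replicate block, 9, 1381, 371 and 72 without days 0, 5, 12 and 16, 116 with day 16 averaged and 249 (exp replicate 1) to 466 (ctl replicate 2) with 1 replicate left out. The ctl slopes, 0 in limma with 203 genes at an unadjusted p under 0.05, became 1 with the replicate block, 2 without exp replicate 2 and 1 without replicates 2 and 3. Of the 9 genes, the 3 called at day 16 became 5 in replicates 2 and 3 only, where 4326 of the 12474 genes tested were called. The 1 slope difference became 0 without a filter, without replicates 2 and 3, without days 0, 5, 9, 12 or 16, with day 16 averaged and in 5 of 6 fits with 1 replicate left out, and 2 without day 20. The 2 exp slopes became 1 after median-of-ratios or quantile scaling, without replicates 2 and 3, without days 9, 12 or 20 and with any 1 replicate left out, and 0 without days 0 or 16 and with day 16 averaged. The causes were not tested. The replicate block also gave calls to Irf2 (exp slope 0.35, adjusted p = 0.0407) and B2m (0.66, 0.0436); it also passed the exp slope of Irf9 (0.81), and its other changes stand with the genes. Ifnar1 passed at day 16 with the block, where 1023 of 12533 genes did, and Ifnar1 and Jak1 in replicates 2 and 3 only. Nothing is read from these counts of the 9 genes. In the 250 bases before the start alone, 2 of the 9 genes held a GAS, against 3 in the whole window; with 1 mismatch allowed, 3 held an ISRE and 8 a GAS. By Spearman's rho, 2, 4, 3 and 2 of the 5 genes most like Stat2, Irf9, Irf7 and Irf1 were shared. Days other than 16 rest on 1 library per line.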
